A study of Mus musculus with 6 samples.

Results

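The cytosolic ribosomal proteins were taken from an array study of interscapular brown adipose tissue (iBAT) as the genes named *Rpsa*, *Rplp* or *Rpl* or *Rps* followed by a number, without the *Rps6k* kinases and names marked as pseudogenes. This rule found 88 of the 20630 gene symbols on the array. The 88 comprised 46 proteins of the large (60S) subunit, 31 of the small (40S) subunit, 9 paralogs, the retrogene *Rps23rg1*, and *Rps19bp1*, which binds a ribosomal protein and is not itself a part of the ribosome. The array was hybridized with iBAT RNA of 3 control and 3 *ob/ob* mice, all male, 16 weeks old and on a C57BL/6 background. *ob/ob* mice carry a mutation in the leptin gene in all their cells and become obese, and the array comparison asked how their iBAT differs from that of control mice. The labels do not say whether RNA of several mice was pooled, so the p values below measure only the spread between these samples.

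Each ribosome is built from ribosomal RNA and a single copy of most of these proteins, which are made in matched amounts and assembled mostly in the nucleolus. Their mRNAs are among the most abundant of the cell and mostly begin with a run of pyrimidines, the terminal oligopyrimidine (TOP) motif, through which mTORC1 and the RNA-binding protein LARP1 set how strongly they are translated. In brown fat, protein synthesis supports the growth of the tissue in the cold, and the mitochondria carry ribosomes of their own with a separate set of proteins.

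The annotated start of these genes is shown here because members with and without the pyrimidine letters CTTTC near it come up again below. The stretches run from 30 bases before the start of the RefSeq transcript to 20 bases from it on, on the gene's strand of mouse assembly GRCm38.p6, so that the transcript begins after the first 30 letters. Capitals mark CTTTC or CTTTCC within 20 bases of the start. *Rpl7a* (chr2:26910777-26910826, plus strand), *Rplp2* (chr7:141447621-141447670, plus strand), *Rpl28* (chr7:4792935-4792984, plus strand), *Rpl13a* (chr7:45128726-45128775, minus strand), and the second of 3 annotated starts of *Rpl35a* (chr16:33056452-33056501, plus strand) hold these letters, and *Rps2* (chr17:24720033-24720082, plus strand) and *Rps15* (chr10:80292401-80292450, plus strand) do not.
Rpl7a: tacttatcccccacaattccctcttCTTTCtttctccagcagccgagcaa
Rplp2: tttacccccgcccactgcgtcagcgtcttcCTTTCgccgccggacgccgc
Rpl28: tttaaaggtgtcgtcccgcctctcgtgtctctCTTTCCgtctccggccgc
Rpl13a: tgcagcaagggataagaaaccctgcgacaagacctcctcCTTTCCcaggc
Rpl35a: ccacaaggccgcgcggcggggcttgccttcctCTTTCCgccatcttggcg
Rps2: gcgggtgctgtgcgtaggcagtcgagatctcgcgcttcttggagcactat
Rps15: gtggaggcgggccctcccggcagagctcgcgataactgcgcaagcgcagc

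Windows of 250 bases before to 50 bases from the annotated start on were held for 67 of the 88 genes, some with several starts, which made 79 windows of the members among 32851 windows of all genes. CTTTC on the gene's strand within 20 bases of the start was found in 20 of the 79 windows (25.3%) and in 5.49% of all windows. CTTTCC, which contains CTTTC, was found in 13.9% against 1.95%. On either strand of the whole window, CCGGAAG, the core of binding sites of ETS family factors, was found in 34.2% against 8.86%, AAGATGGC, the core of YY1 sites, in 10.1% against 2.75%, and GGGCGG, the box bound by Sp1, in 59.5% against 35.7%. The 8 member windows with AAGATGGC came from 6 genes, and the overlapping windows of all 3 starts of *Rpl35a* were among them. TATAAA on the gene's strand was found in 8.86% of the members' windows and in 8.32% of all. The windows of ribosomal protein genes thus held the pyrimidine, ETS and YY1 letters at a higher share than all windows and the TATA letters at about the same share, which describes these letters and not the binding of a factor.

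The signal is given on the log2 scale after quantile normalization, from the brightest probe of each gene, where 1 unit is 2-fold. It ranks no gene above another, since probes differ in brightness. Of the 88 genes, 87 passed the filter of detection on at least 3 of the 6 arrays, and 86 were detected on all 6. *Rpl7l1*, a paralog of *Rpl7*, was detected on 2 arrays and was not tested. The brown fat marker *Ucp1*, the uncoupling protein of brown adipocytes, had signals of 13.05, 11.72 and 9.48 on control 1, 2 and 3 and of 8.93, 9.12 and 10.03 on *ob/ob* 1, 2 and 3, and all 9 genes of a list of brown adipocyte markers had a lower mean in *ob/ob*. *Lep* itself, whose transcript is not removed by the *ob* mutation and so checks no label, had signals of 5.74, 4.57 and 5.30 on the control arrays and of 6.68, 5.83 and 9.33 on the *ob/ob* arrays.

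Control 3 and *ob/ob* 3 stood apart from the other arrays of their groups. Over the brown adipocyte list, the summed linear signal was 6631 on control 3, inside the range of the *ob/ob* arrays (4121 to 12586) and far below control 1 (101995). Markers of skeletal muscle, a tissue that lies against this depot, had a median signal of 10.95 on *ob/ob* 3 against 6.25 and 6.5 on *ob/ob* 1 and 2, with 9.76, 10.14 and 7.79 on the control arrays. The summed signal of the 10 muscle markers spanned 5033 to 56940 in controls and 1133 to 89037 in *ob/ob*. Summed macrophage markers were higher in *ob/ob* without overlap (2227 to 2966 against 1005 to 1901) and endothelial markers lower (3636 to 6343 against 6456 to 9912), while those of white adipocytes (938 to 1493 against 1061 to 2115), lymphocytes (991 to 3824 against 1702 to 4049) and erythroid cells (758 to 32131 against 1381 to 12540) overlapped. Such sums are carried by the brightest genes, such as the endothelial *Pecam1*, which itself differed by 0.05. The endothelial medians overlapped, with 9.16, 9.07 and 7.15 in controls and 5.81, 5.77 and 8.11 in *ob/ob*. Taken singly, 0 of the 6 endothelial genes had groups apart, and 2 of the 8 macrophage genes tested were apart and higher. Among all genes tested, 4.19% were apart and lower and 3.76% apart and higher. The arrays had 43020 spots each, no saturated spot, and between 83.5% and 89.9% of probes well above background. The 75th percentile of the signal before normalization was lowest on control 3 (94.5, against up to 291.8 on control 1), and the median spike-in signal was lowest on *ob/ob* 3 (4.01, against 6.19 to 7.10). The part of these differences in the results below was not tested, and the main results are given over all 6 arrays and without control 3 and *ob/ob* 3.

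Over all 6 arrays, no net difference between *ob/ob* and control iBAT was seen in the cytosolic ribosomal proteins. Of the 87 tested, 45 had a higher and 42 a lower mean in *ob/ob*, with a median log2 difference of 0.02 (quartiles -0.30 and 0.25), beside -0.09 over all 19011 genes tested. The largest higher mean was that of *Rps2*, with a difference of 1.19, and 84 of the 87 were under 2-fold. The 46 proteins of the 60S subunit and the 31 of the 40S subunit had the same median, 0.02.

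None of the 87 passed an adjusted p under 0.05 in limma, nor did any gene (0.0% of genes and 0.0% of probes), and 1 member had an unadjusted p under 0.05, against 3.72% of all genes. At that p and 2-fold, 1 member was lower and 0 were higher, against 1.49% of all genes lower and 1.69% higher. The groups did not overlap for 2 members, *Rpl13a* among them, both lower in *ob/ob*, where 4.19% of all genes lay lower, 3.76% higher and 7.95% either way. The 87 genes were thus called no more often than all genes.

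**Figure D1:**
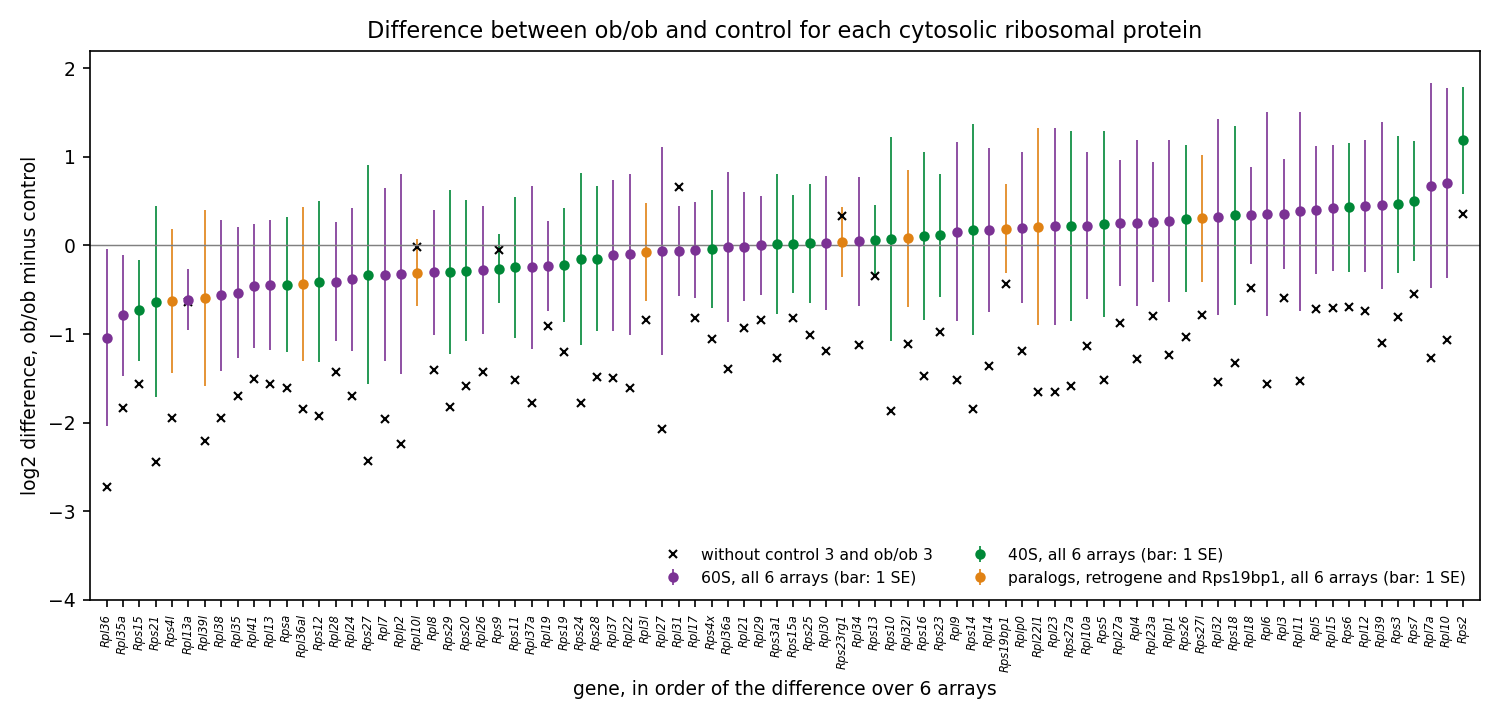
Log2 difference between *ob/ob* and control iBAT for 84 cytosolic ribosomal proteins, in order of the difference over all 6 arrays (coloured points, bars 1 SE; colours give the subunit), with the same difference without control 3 and *ob/ob* 3 as black crosses. The coloured points lie around 0, between -1.04 for *Rpl36* and 1.19 for *Rps2*, while the crosses lie below 0 for 81 of the 84 genes.

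These genes varied more between single arrays than between the groups. The members' median signal was 10.93, 10.77 and 9.17 on control 1, 2 and 3 and 10.23, 9.51 and 11.38 on *ob/ob* 1, 2 and 3 on the quantile scale, which makes the median of all genes nearly equal on every array by construction. With scaling to each array's 75th percentile in its place, the members' medians were 3.71, 3.34 and 1.66 in controls and 2.80, 1.92 and 4.29 in *ob/ob*, in the same order of arrays. *ob/ob* 3 gave the highest value of the 6 arrays for 63 of the 87 genes (72.4%, beside 30.5% of all genes), and control 3 the lowest for 69 (79.3%, beside 19.4%). A gene's range over the arrays had a median of 2.60 in the members and 1.81 in all genes. Among the 1901 genes with the highest mean signals, 68 of them members, *ob/ob* 3 was above control 3 for 38.2%, and the median range was 2.93.

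The same order of arrays appeared gene by gene. A single profile over the 6 arrays, the members' median deviation from each gene's own mean, took up 76.7% of the members' variation between arrays. *ob/ob* 3 was above control 3 for 81 of the 87 (93.1%, beside 43.1% of all genes), by a median of 2.53 on the log2 scale. The 6 exceptions included *Rpl13a*, *Rpl31*, *Rps9*, the testis paralog *Rpl10l* and the retrogene *Rps23rg1*.

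**Figure D2:**
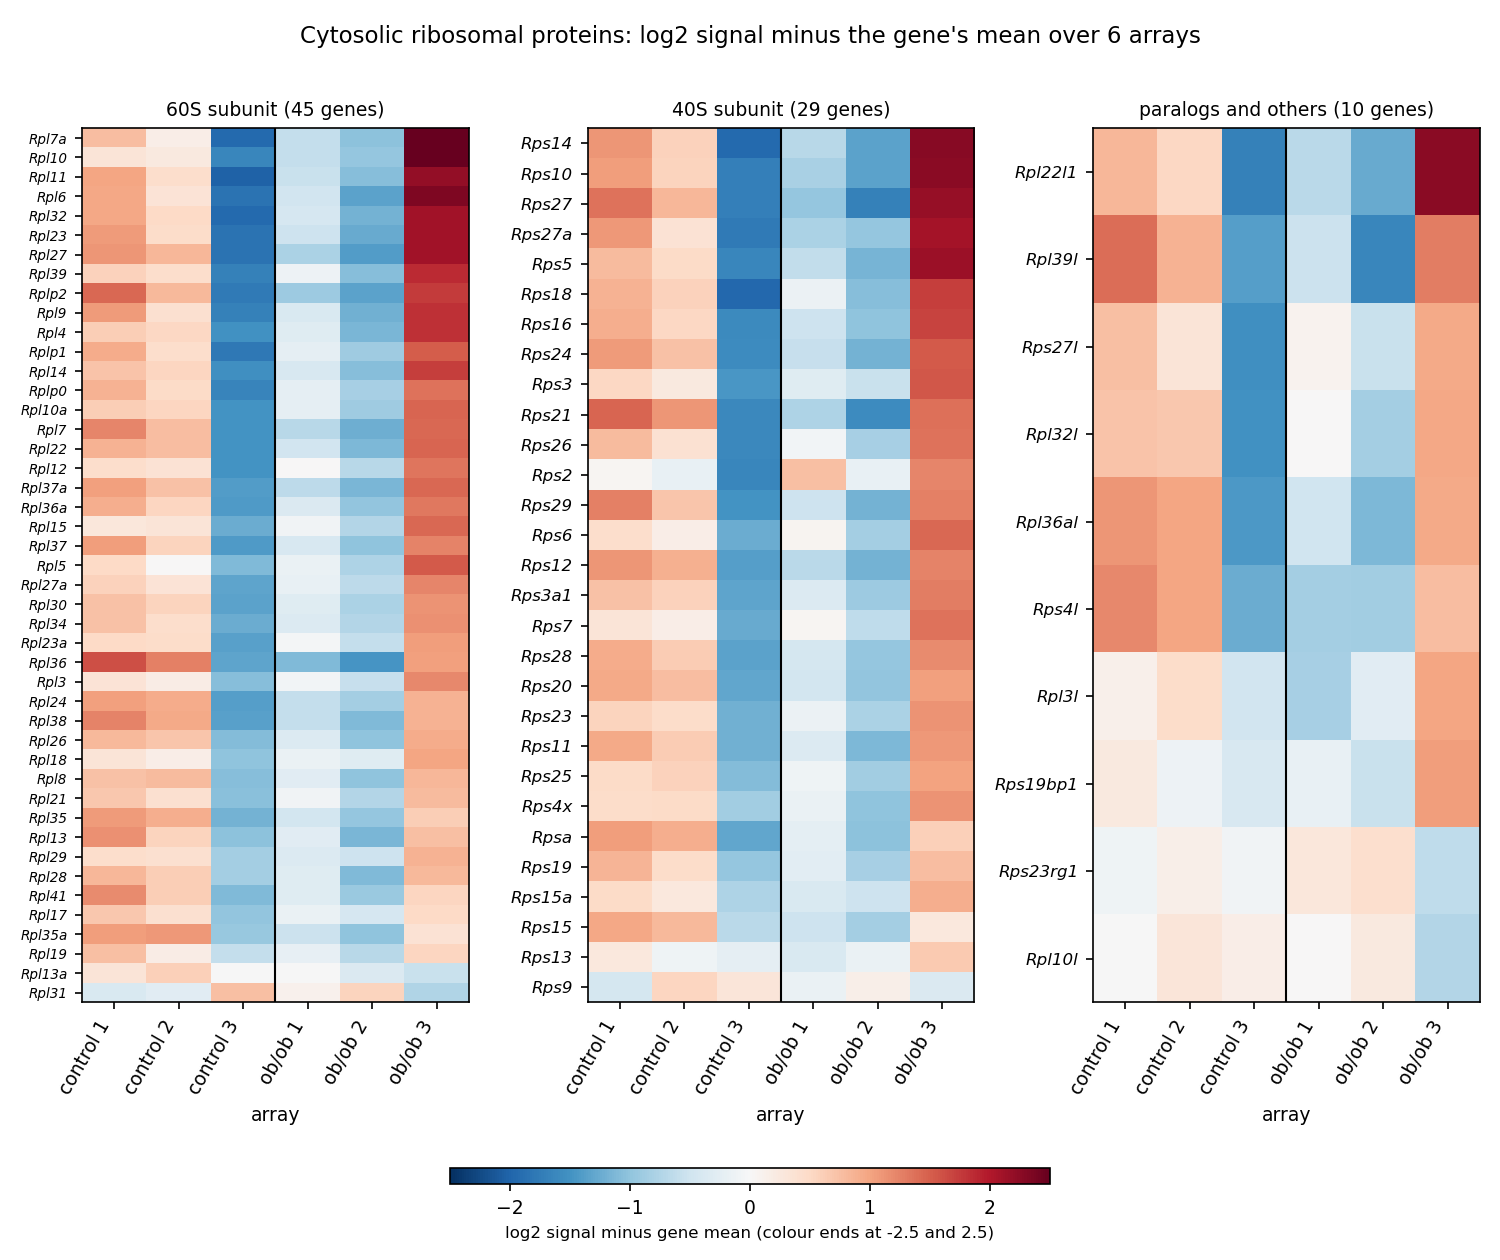
Log2 signal of 84 of the genes on each array minus the gene's mean over the 6 arrays (red above, blue below the mean), for the 60S subunit, the 40S subunit and the paralogs with *Rps19bp1* and *Rps23rg1*, each ordered by the difference between *ob/ob* 3 and control 3. Most rows are blue on control 3 and red on *ob/ob* 3, and control 1 and 2 are redder than *ob/ob* 1 and 2.

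Without control 3 and *ob/ob* 3, the ribosomal proteins were lower in *ob/ob*. The median log2 difference was then -1.33, beside 0.07 over all genes. The 2 *ob/ob* arrays lay below the 2 control arrays for 81 of the 87 genes, against 36.9% of all genes, and above them for 2, *Rpl31* and *Rps23rg1*, against 37.9%. In limma 70 of the 87 were lower at an adjusted p under 0.05, against 27.3% of all genes. These 2 arrays were left out after the data were seen, and 2 samples against 2 leave little to measure the spread with, so these counts describe the 4 arrays. On the same 4 arrays the brown adipocyte markers had a median difference of -3.91 (9 of 9 apart and lower), the skeletal muscle markers of -2.95 (8 of 10), the endothelial markers of -1.91 (5 of 6), the erythroid markers of -1.52 (3 of 5) and 11 reference genes outside the ribosome of -0.80 (7 of 11), while those of white adipocytes, macrophages and lymphocytes had medians of 0.27, 0.42 and 0.25. The part of these differences in that of the ribosomal proteins was not tested. Leaving out control 3 alone gave a median of -0.58 and 12 members apart and lower, against 11.4% of all genes, leaving out *ob/ob* 3 alone gave -0.64, and leaving out any other array gave medians from 0.18 to 0.44. With array quality weights in limma, which give discordant arrays less weight, the median was -1.04 and 63 members were lower at an adjusted p under 0.05, against 27.7% of all genes. In whole tissue RNA, fewer cells of a type and less RNA per cell cannot be told apart.

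Among proteins of the 60S subunit, the 3 proteins of the stalk, which recruits elongation factors to the ribosome, had the shared order of arrays in full. *Rplp0* had signals of 13.82, 13.44 and 11.31 in controls and 12.73, 12.13 and 14.30 in *ob/ob*. *Rplp1* had 9.19, 8.70 and 6.48 against 8.04, 7.38 and 9.77. *Rplp2* had 15.17, 14.54 and 11.97 against 12.82, 12.40 and 15.48. In all 3 genes control 3 was the lowest array and *ob/ob* 3 the highest, and the groups overlapped, with log2 differences of 0.20 ± 0.86, 0.28 ± 0.92 and -0.33 ± 1.13 (SE).

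*Rpl5* and *Rpl11*, which carry the small 5S ribosomal RNA and can bind the p53 regulator Mdm2 when assembly stalls, had differences of 0.40 ± 0.72 and 0.38 ± 1.13. *Rpl11* ran from 10.55 on control 3 to 14.76 on *ob/ob* 3, with 13.55 and 13.01 on the other control arrays and 12.002 and 11.51 on the other *ob/ob* arrays. *Rpl10*, one of the last proteins to join the 60S subunit, had signals of 12.87, 12.79 and 10.91 in controls and 11.95, 11.57 and 15.15 in *ob/ob*, a difference of 0.71 ± 1.08. The second largest range of the 60S proteins, after that of *Rpl7a*, was thus set by *ob/ob* 3. *Rpl7a* had 13.45, 12.83 and 10.72 against 12.08, 11.65 and 15.29, a difference of 0.68 ± 1.16. *Rpl39*, a protein of the tunnel through which the new chain leaves, had a difference of 0.45 ± 0.95. Each of these 5 genes was lower on *ob/ob* 1 and 2 than on control 1 and 2, and its higher *ob/ob* mean came from the third array of the groups.

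*Rpl36* had the largest lower mean of the 60S subunit, with signals of 14.56, 14.20 and 11.63 in controls and 11.84, 11.47 and 13.96 in *ob/ob*, a difference of -1.04 ± 1.0 (unadjusted p = 0.34 in limma). Its other probes gave -1.04 and -0.86. *Rpl35a*, whose mutation causes Diamond-Blackfan anemia in people, had 10.30, 10.36 and 8.33 against 8.73, 8.26 and 9.63, a difference of -0.79 ± 0.68. The groups of both genes overlapped through control 3 and *ob/ob* 3.

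In the 40S subunit, *Rps2*, which lines the entry of the mRNA channel, had signals of 9.50, 9.28 and 7.83 in controls and 10.22, 9.27 and 10.68 in *ob/ob*. This largest higher mean, 1.19 ± 0.60, had an unadjusted p of 0.09 in limma, and *ob/ob* 2 lay just below the control 2 array. *Rps7* and *Rps3* had higher means by 0.50 ± 0.67 and 0.46 ± 0.77, and *Rps6*, the protein that S6 kinases phosphorylate downstream of mTORC1, by 0.43 ± 0.73. *Rps6* had 10.25, 9.98 and 8.57 against 9.88, 8.96 and 11.24, so that its *ob/ob* arrays spanned the controls. The lower means of *Rps15* (-0.73 ± 0.57), *Rps21* (-0.63 ± 1.08) and *Rpsa* (-0.45 ± 0.76), the last also known as the laminin receptor precursor, likewise came with overlapping groups. *Rps27a*, which is made as a fusion with ubiquitin, had a difference of 0.22 ± 1.08, and *Rps19bp1* of 0.19 ± 0.50. The other probes of *Rps27a* gave 0.27 and -1.14, the latter with groups apart and lower (unadjusted p = 0.04 in limma).

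A few members did not swing with the rest, and they were picked here after their values were seen. *Rpl13a* had signals of 12.26, 12.54 and 11.94 in controls and 11.93, 11.58 and 11.38 in *ob/ob*, which gave groups that did not overlap and a difference of -0.61 ± 0.34 (unadjusted p = 0.12 in limma; exact permutation p = 0.10, and a design of 3 arrays a group cannot give a lower one). *Rps9* ranged over 0.98, with 11.91, 12.89 and 12.66 against 12.19, 12.50 and 11.99. *Rpl31* ran the other way, with 9.87, 9.95 and 10.999 against 10.34, 10.80 and 9.49. The other probes of *Rpl13a* and *Rpl31* followed the order of most members.

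Several ribosomal proteins serve as reference genes for quantitative PCR. On the log2 scale *Rplp0*, *Rps18* and *Rpl32* ranged over 3.0, 3.68 and 4.05 across the 6 arrays, whereas *Rpl19* ranged over 1.44 and *Rpl13a* over 1.17. The small range of *Rpl13a* was that of its brightest probe, and its other probes ranged over 2.06 and 2.11. *Actb*, which the study used to normalize PCR, had signals of 14.50, 14.14 and 11.20 in controls and 12.89, 12.32 and 16.17 in *ob/ob*, a range of 4.96 in the order of most members. *Gapdh* ranged over 3.78. None of the 5 ribosomal reference genes passed the test between groups, and neither did *Actb* (0.51 ± 1.30) or *Gapdh* (-1.21 ± 1.26).

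The number of probes per gene allowed a second look at the same transcripts. Of 177 member probes tested, 158 were higher on *ob/ob* 3 than on control 3 and 19 were lower. Of the 53 genes with several probes tested, 34 had the same sign of the group difference in all their probes. In 8 genes, among them *Rpl7*, *Rpl14*, *Rpl31*, *Rps3*, *Rps27a* and *Rpsa*, 1 probe was more than 1 log2 unit higher and another more than 1 lower on *ob/ob* 3 than on control 3. *Rps3*, a protein of the mRNA entry that also takes part in DNA repair, had 10.41, 10.14 and 8.45 against 9.60, 9.35 and 11.45 by its brightest probe and 7.66, 8.07 and 10.34 against 9.78, 9.38 and 7.35 by the other. The dimmer probe of *Rps3* was the mirror image of the brighter. *Rpl7* showed the same, with 14.46, 14.02 and 11.75 against 12.54, 12.02 and 14.68 by the brightest of 4 probes and 11.13, 11.53 and 13.15 against 13.17, 12.73 and 10.52 by another. *Rpl14* had 12.42, 12.23 and 10.18 against 11.31, 10.63 and 13.43 by its brightest probe, and 5.38, 5.62 and 9.89 against 10.23, 10.05 and 7.06 by the other. Pseudogene copies are numerous for these genes, and which transcripts each probe detects was not tested.

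**Figure D3:**
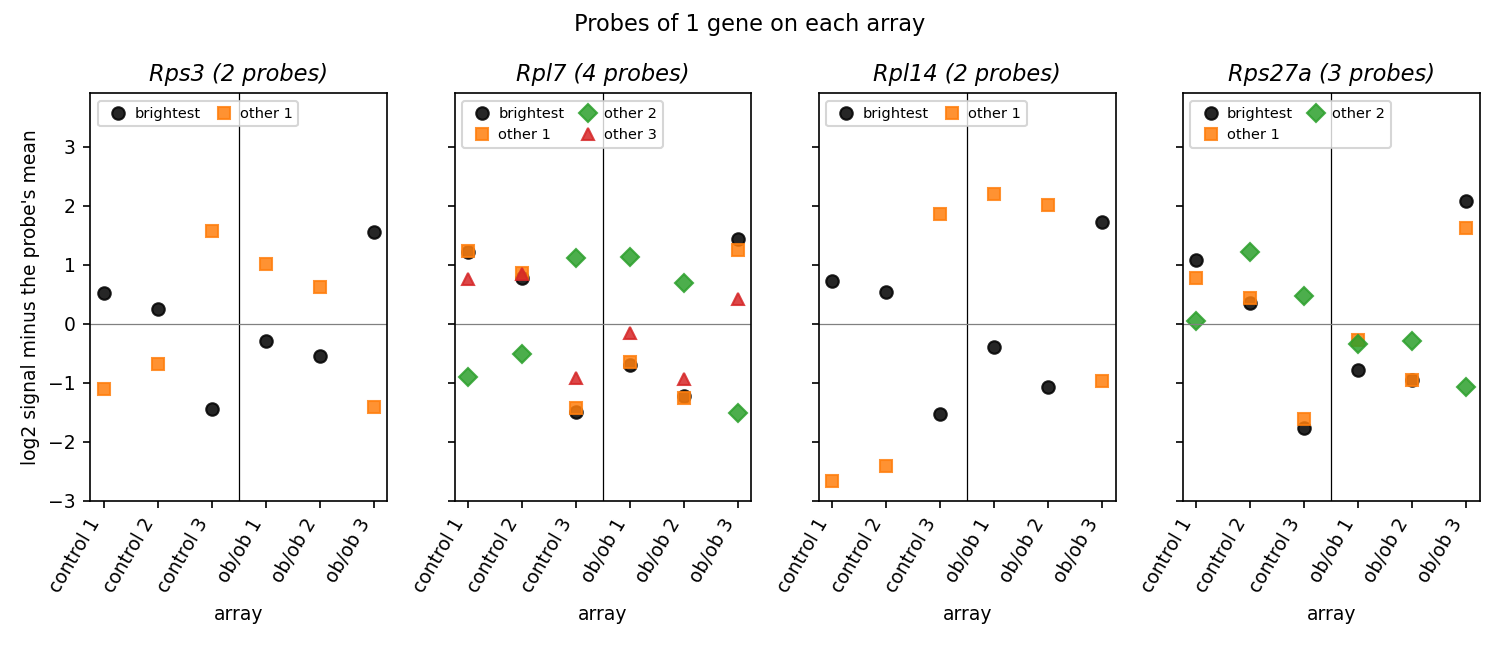
Log2 signal of every probe of *Rps3*, *Rpl7*, *Rpl14* and *Rps27a* on each array, minus the probe's own mean over the 6 arrays (black circles, the brightest probe; colours, the others). In each gene a probe that is high on *ob/ob* 3 and low on control 3 is set against one that is lower on *ob/ob* 3 than on control 3, as for *Rps3*, whose brightest probe goes from 8.45 to 11.45 and whose other goes from 10.34 to 7.35.

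Paralogs with their own symbol replace a ribosomal protein in particular tissues or states, and 7 of them could be set against their parent gene within each array. The log2 signal of *Rpl39l* minus that of *Rpl39* was -4.83, -5.23 and -5.33 in controls and -6.06, -6.22 and -6.24 in *ob/ob*, lower by -1.05 with no overlap. Low signals of *Rpl39l* on control 3 and *ob/ob* 2 (4.44 and 4.18) enter these values. *Rpl36al* minus *Rpl36a* was -0.06, 0.18 and -0.28 against -0.40, -0.38 and -0.63, lower by -0.42 with no overlap. These were the only pairs whose groups lay apart by the brightest probes, each with an exact permutation p of 0.10 and 0.35 after adjustment over the 7 pairs. *Rps27l* minus *Rps27* differed by 0.64, *Rpl22l1* minus *Rpl22* by 0.31, *Rpl3l* minus *Rpl3* by -0.43, *Rpl10l* minus *Rpl10* by -1.01, and *Rps4l* minus *Rps4x* by -0.59, all with overlapping groups. The separation of the first 2 pairs rested on the probe of the parent gene: with either of the 2 other probes of *Rpl39* the difference was -0.57 or -0.66, with either of those of *Rpl36a* it was -0.33 or -0.24, and the groups overlapped each time. This comparison of probes was added after the data were seen.

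By themselves the paralogs did not pass the test over all 6 arrays. *Rpl39l*, detected on 5 arrays, had signals of 7.22, 6.67 and 4.44 in controls and 5.28, 4.18 and 7.09 in *ob/ob*, a difference of -0.59 ± 1.0. On control 3 and *ob/ob* 2 it lay below the median of the decile of genes with the lowest mean signals (4.58 and 4.53). The size of its differences rests in part on such low signals. *Rps4l* and *Rpl36al* had differences of -0.63 ± 0.81 and -0.43 ± 0.87, *Rpl22l1* and *Rps27l* of 0.21 ± 1.11 and 0.31 ± 0.72, *Rpl3l*, a form of striated muscle, of -0.07 ± 0.56, and *Rpl10l* of -0.31 ± 0.38. Without control 3 and *ob/ob* 3, *Rpl39l* had a difference of -2.21 ± 0.38, *Rps4l* of -1.95 ± 0.23, *Rpl36al* of -1.85 ± 0.27 and *Rpl22l1* of -1.65 ± 0.28, with adjusted p values in limma of 0.0019, 0.0003, 0.0009 and 0.0018. These p values rest on 2 arrays a group, with the other arrays left out after the data were seen. On the same arrays 27.3% of all genes were lower at an adjusted p under 0.05, so the values describe these arrays. The median of the 10 paralogs and other members moved from -0.02 to -0.98. A probe of a paralog can share sequence with its parent's transcript, and this was not tested.

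Because the arrays shared a profile, each member was also set against the others on the same array, by subtracting the members' median from every signal. This step was added after the data were seen. By it, 15 of the 87 had groups that did not overlap, 10 lower and 5 higher in *ob/ob* (5.91% of all genes, 4.51% lower and 1.4% higher, on the same scale, which is not like for like because most other genes lack the shared profile). None had an unadjusted or adjusted p under 0.05 in limma, where 241 of 19011 genes passed unadjusted and 0.0% adjusted. For each the exact permutation p was 0.10, the smallest possible. On this scale limma shares the spread over all probes, most of which lack the members' profile. *Rpl28*, with relative SDs of 0.06 in controls and 0.03 in *ob/ob*, had a standard error of 0.63. These limma p values therefore cannot show whether a member differed from the others. The counts depended on the arrays and the scaling. There were 24 lower and 9 higher without control 3 (8.07% and 12.5% of all genes), 22 and 7 without *ob/ob* 3 (12.4% and 2.6%), 10 and 10 without *ob/ob* 1 (4.62% and 2.92%), and 19 and 7 with 75th percentile scaling (3.68% and 1.54%). Leaving out control 1 gave 11 lower and 8 higher (5.73% and 2.45% of all genes). Without control 2 there were 11 and 6 (5.11% and 1.42%), and without *ob/ob* 2, 13 and 5 (9.02% and 1.67%).

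*Rps2* stood highest, with signals relative to the members' median of -1.42, -1.49 and -1.34 in controls and -0.01, -0.24 and -0.70 in *ob/ob*, a difference of 1.1. Its second probe, with a relative difference of 0.63, also had groups that lay apart. *Rps7* (0.42), *Rpl12* (0.36), *Rps6* (0.35) and *Rpl15* (0.34) were the other members above the rest. *Rpl35a* stood lowest, with -0.62, -0.41 and -0.84 in controls and -1.5, -1.25 and -1.74 in *ob/ob*, a difference of -0.87. *Rps15*, a protein near the decoding site, had -1.19, -1.20 and -1.07 against -1.99, -1.59 and -2.34, a difference of -0.82. The rest were *Rpl35* (-0.62), *Rpl41* (-0.54), *Rpl13* (-0.53), *Rpsa* (-0.53), *Rpl28* (-0.49), *Rpl8* (-0.39), *Rpl26* (-0.37) and *Rps19* (-0.31), the gene most often mutated in Diamond-Blackfan anemia. Of the 15, 14 also lay apart after 75th percentile scaling and 14 with the authors' normalized values. Most of their other probes did not separate the groups. Of 15 other tested probes of 10 of these genes, 3 lay apart on the same side, 1 each of *Rps2*, *Rpl26* and *Rpsa*, and 12 did not lie apart, among them those of *Rpl35a* (-0.32), *Rps15* (-0.08), *Rpl8* (-0.30), *Rpl15* (0.34) and *Rpl12* (0.02) and both of *Rpl13* (-0.47 and -0.15). By the starts shown above, *Rps15* lacked the letters CTTTC near the annotated start, and *Rpl35a* and *Rpl28* held them. Genes with and without these letters were thus found on the lower side. Both kinds were also found on the higher side, where *Rpl12* and *Rpl15* held the letters and *Rps2* did not. Whether the mRNA of a gene without the letters begins with a TOP motif was not tested.

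**Figure D4:**
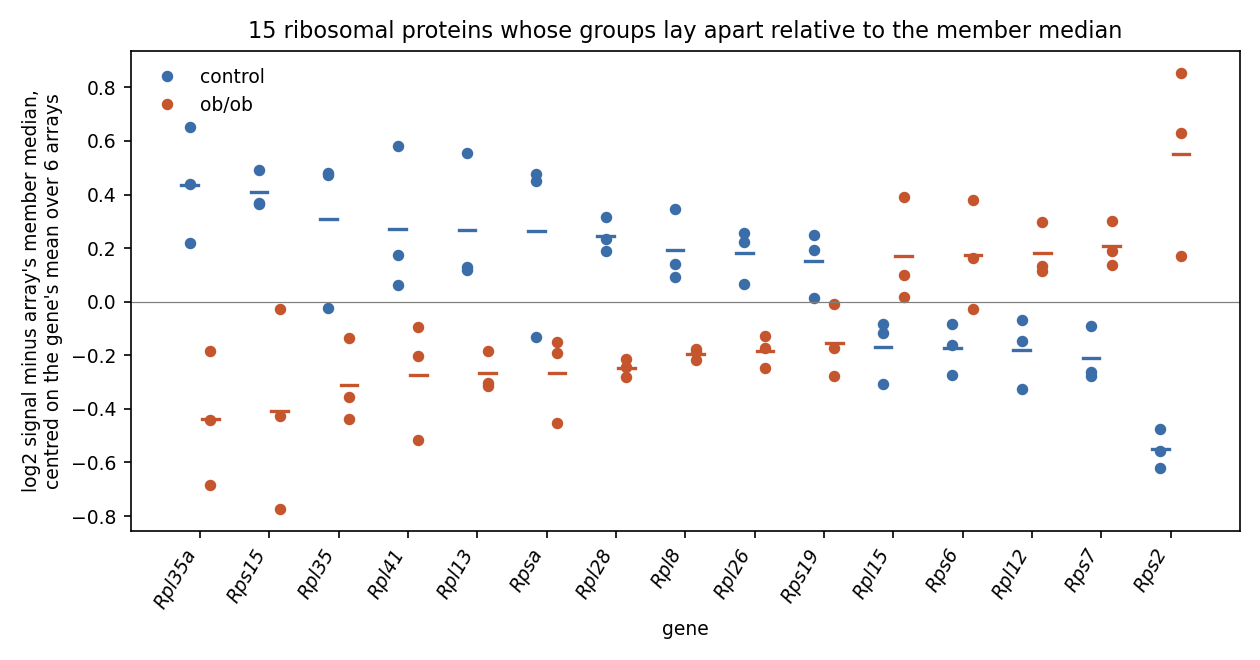
Log2 signal of the 15 genes relative to the members' median on the same array, centred on each gene's mean (blue, control; orange, *ob/ob*; a point is an array and a bar the mean of 3). The 10 genes on the left were lower and the 5 on the right higher in *ob/ob*, from -0.87 for *Rpl35a* to 1.1 for *Rps2*, and the points of the groups do not overlap because the genes were chosen for it.

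Ribosomal proteins that carry other names were described beside the members. *Fau*, whose product holds the 40S protein eS30, had signals of 12.89, 12.56 and 10.51 in controls and 10.84, 10.35 and 12.23 in *ob/ob*, a difference of -0.84 ± 0.79. *Rack1*, the signaling scaffold on the 40S head, had a difference of 0.46 ± 1.09. Neither gene passed the test.

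The mitochondrial ribosomal proteins, which build a separate ribosome inside mitochondria, shared part of the array order. The 78 tested had medians of 8.41, 7.97 and 6.80 on the control arrays and 7.54, 7.05 and 8.54 on the *ob/ob* arrays, and a median difference of -0.10. Control 3 was the lowest array for 65.4% of them and *ob/ob* 3 the highest for 43.6%. *Mrps27* was alone in having an unadjusted p under 0.05, with a difference of -1.31 ± 0.52 (limma). Without control 3 and *ob/ob* 3 their median was -1.05, with 63 of 78 apart and lower and 8 apart and higher, against 36.9% and 37.9% of all genes.

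Genes that act on ribosomes did not pass the adjusted test over all 6 arrays either. Of 36 translation initiation factors, 17 were higher and 19 lower in *ob/ob* with a median difference of -0.04, and *Eif3j1*, a subunit of the factor that prepares the 40S subunit, was lower without overlap (-1.19 ± 0.42, unadjusted p = 0.03 in limma). Of 11 elongation and release factors, 8 were higher, with a median of 0.41, and *Eif5a*, which helps the ribosome over difficult peptide bonds, was higher without overlap (1.37 ± 0.39, unadjusted p = 0.01). Of 64 ribosome assembly factors, 40 were higher and 24 lower with a median of 0.18, and 2 had an unadjusted p under 0.05, beside 3.72% of all genes, both lower. *Pes1*, needed to process the RNA of the 60S subunit, had signals of 9.50, 10.33 and 8.58 in controls and 7.14, 6.88 and 6.5 in *ob/ob*, and *Heatr1*, needed to make ribosomal RNA, had 11.18, 11.15 and 10.88 against 8.63, 8.78 and 9.83. Their differences, -2.63 ± 0.51 and -1.99 ± 0.42, had unadjusted p values of 0.0019 and 0.0028 in limma and an adjusted p of 1.0.

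The remaining lists gave no call over all 6 arrays. Of 19 regulators of mTORC1 and of TOP mRNAs, 14 were lower, with a median of -0.14 and no unadjusted p under 0.05. The 9 other TOP mRNAs had a median of 0.41, and on each of them control 3 was the lowest array and *ob/ob* 3 the highest. This list shares *Eef1a1* and *Eef2* with the elongation factors, *Npm1* with the assembly factors and *Pabpc1* with the initiation factors. *Eef1a1* gives the median of 0.41 in both of its lists. Translationally controlled *Tpt1*, for example, had 14.72, 14.21 and 11.89 in controls and 12.91, 12.32 and 15.56 in *ob/ob*. The 9 ribosome quality control genes tested, of 10, had a median of -0.43, with 7 lower. Without control 3 and *ob/ob* 3, the median of the quality control genes was -2.06, with 9 of 9 lower at an adjusted p under 0.05, and that of the mTORC1 and TOP regulators -0.86, with 12 of 19, beside 27.3% of all genes. The medians of the initiation factors, assembly factors, elongation factors and other TOP mRNAs were -1.18, -0.75, -0.45 and -0.82, with 24 of 36, 30 of 64, 3 of 11 and 4 of 9 lower at that threshold.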

How the data were processed

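iBAT RNA was labelled with Cy3 and hybridized to 6 Agilent arrays, 1 per sample. The authors deposited the scanner output of Agilent Feature Extraction (version 11.0.1.1) with background-corrected spot intensity and flags, and a table of log2 values, quantile normalized by them in GeneSpring. That table correlated with the scanner values at 0.987 to 0.998. The genotype and number of each sample came from its label.

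Of 39429 probes, 104 with outlier flags on all spots of an array were left out. The mean log2 intensity of a probe over its spots was quantile normalized between arrays. Probes were named from their RefSeq accession through the RefSeq genes of GRCm38.p6 (27174 of 28623 matched), and the brightest probe stood for a gene. The 35448 probes detected on at least 3 arrays were tested across all genes with limma (version 3.58.1; R 4.3.3), as *ob/ob* minus control, because the methods name no test for the adjusted p of the arrays; the unpaired t-test they give for comparing 2 groups was run as an alternative. P values were adjusted by Benjamini-Hochberg over these probes. The ± values are limma's standard errors. Paralogs, and single genes beside limma, were tested by two-sided exact permutation over samples. Tables came from pandas (2.3.3) with numpy (2.4.6) in Python (3.11.15), and plots from matplotlib (3.10.9). The fit was tested on simulated data.

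The members and lists were chosen with earlier results of these data known. Named members are the 6 largest rises and falls, the paralogs, any gene with an unadjusted p under 0.05 and groups apart, and genes with a set role or used as PCR references; of other lists, genes with an unadjusted p under 0.05 and groups apart. Some genes that the rule covers are not reported here, though counts and medians include them. Members outside this rule were chosen after their values were seen. Marker lists for other cell types, written from general knowledge, were summed per array. Other settings tried were scaling to the 75th percentile, normexp background correction, the authors' values, other detection filters, the methods' t-test on the same values, limma with a trend, array quality weights, the replicate number or scan as a block, the mean of a gene's probes, and each array left out. Member-centring, leaving out control 3 and *ob/ob* 3 together, and the other probes of paralog pairs and centred genes were added after seeing the data.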

Additional observations from a re-analysis of the deposited data

How the results depend on the processing

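The members' median log2 difference stayed between -0.12 and 0.04 under 75th percentile scaling, normexp, the authors' values, both other detection filters, the t-test, the trend, the replicate block (0.02), the scan block (-0.12) and the mean of a gene's probes. It was -1.04 with array quality weights, and -1.33 without control 3 and *ob/ob* 3, a setting added after seeing the data. The number of members lower at an adjusted p under 0.05 went from 0 to 63 with weights, beside 27.7% of all genes. Without these arrays it was 70, beside 27.3%. At an unadjusted p under 0.05 and 2-fold, the 1 lower member (1.49% of all genes) became 45 with weights and 59 without these arrays. The share of all genes by this rule in these settings is not given here, so these counts cannot be set against it. The count was 0 with 75th percentile scaling, the t-test, the trend, the replicate block, the scan block, the mean of the probes and member-centring. For member-centring, limma has the limit given above. With the mean of the probes, 1 member, *Rpl14*, was higher by this rule. Members with groups apart were 2 lower and 0 higher, then 1 lower with normexp and with the authors' values, 0 lower and 1 higher with the mean of the probes, 10 lower and 5 higher with member-centring, and 81 lower and 2 higher without control 3 and *ob/ob* 3. Of all genes, 4.19% were apart and lower and 3.76% higher in the main fit. These shares were 4.51% and 1.4% with member-centring, and 36.9% and 37.9% without control 3 and *ob/ob* 3. Leaving out 1 array at a time gave 0 to 2 members lower at 2-fold, 2 to 12 apart and lower, and 0 to 1 apart and higher. The 12 were found without control 3, beside 11.4% of all genes.

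Several named genes changed sign. With array quality weights the differences were *Rpl10* -0.88, *Rpl11* -1.15, *Rpl22l1* -1.33, *Rpl32* -1.13, *Rpl39* -0.77, *Rpl5* -0.37, *Rpl7a* -0.89, *Rplp0* -0.87, *Rplp1* -0.86, *Rps18* -0.95, *Rps19bp1* -0.21, *Rps27a* -1.23, *Rps27l* -0.44, *Rps3* -0.60, *Rps6* -0.35 and *Rps7* -0.30. With the scan block they were *Rpl11* -0.049, *Rpl22l1* -0.25, *Rps19bp1* -0.12 and *Rps27a* -0.45. *Rps27a* was -0.041 with 75th percentile scaling and -0.22 with the mean of the probes, and *Rpl3l* was 0.039 with normexp. With 1 array left out, ranges were *Rpl10* -0.43 to 1.37, *Rpl11* -0.62 to 1.01, *Rpl19* -0.58 to 0.090, *Rpl22l1* -0.86 to 0.90, *Rpl32* -0.64 to 1.0, *Rpl36al* -1.26 to 0.015, *Rpl39* -0.36 to 1.1, *Rpl39l* -1.43 to 0.075, *Rpl3l* -0.59 to 0.32, *Rpl5* -0.27 to 0.88, *Rpl7a* -0.46 to 1.35, *Rplp0* -0.57 to 0.68, *Rplp1* -0.55 to 0.81, *Rplp2* -1.29 to 0.31, *Rps18* -0.56 to 0.95, *Rps19bp1* -0.28 to 0.52, *Rps27a* -0.77 to 0.81, *Rps27l* -0.39 to 0.76, *Rps3* -0.19 to 0.86, *Rps6* -0.18 to 0.96 and *Rps7* -0.046 to 0.95. The cause of these changes was not tested.

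Samples with the same replicate number did not deviate together (correlations of -0.78, -0.66 and -0.85). Samples with different numbers also correlated strongly, with 0.865 for control 1 and *ob/ob* 3 and -0.85 for control 1 and *ob/ob* 2. Control 3 and *ob/ob* 3 deviated in opposite directions, so these correlations cannot tell whether the numbers pair the samples. The replicate block left the median at 0.02. Control 1, control 3 and *ob/ob* 1 share a scan, and *ob/ob* 2, *ob/ob* 3 and control 2 each lie in a scan of their own. The scan block therefore rests on the shared scan alone. With 3 arrays a group, the standard errors of the members had a median of 0.79 on the log2 scale.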

Other observations

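Probes for names marked as pseudogenes were left out of the members. The probe of *Rpl34-ps1* had signals of 9.84, 9.82 and 8.56 in controls and 8.93, 8.44 and 9.53 in *ob/ob*, the order of arrays seen for most members, and a log2 difference of -0.44 ± 0.51 (SE). The probe of *Rps15a-ps6* had 8.51, 9.08 and 10.22 in controls and 9.62, 9.99 and 7.11 in *ob/ob*, the opposite order, and a difference of -0.36 ± 0.87.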
